A study of Mus musculus with 32 samples.

Results

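The 10 genes described here belong to the arm of the endoplasmic reticulum (ER) stress response that runs from the kinase PERK through the transcription factors ATF4 and CHOP: Eif2ak3, Atf4, Atf5, Ddit3, Trib3, Chac1, Asns, Ppp1r15a, Sesn2 and Nupr1. They were taken by symbol from the deposited table of 36595 genes, where they filled 11 rows, because Ddit3 has 2 identifiers and the second, ENSMUSG00000116429, stood at 0 in all 32 libraries. All 10 genes were among the 16428 genes with enough counts to be tested. RNA came from islets of 10-week-old male and female C57BL/6NHsd mice that carried human IAPP in place of the mouse gene through homologous recombination (hIAPP), or from their wild-type littermates with mouse Iapp (mIAPP). Zygosity is not given in the labels. Handpicked islets recovered overnight at 11.1 mM glucose and then spent 48 h at either 11.1 or 16.7 mM, which makes 4 groups of 8 libraries: mIAPP at 11.1 mM, mIAPP at 16.7 mM, hIAPP at 11.1 mM and hIAPP at 16.7 mM. Each of 8 experiment sets gave 1 library to each group. The labels do not count the animals behind a set. The p-values thus measure how group differences vary across sets of cultured islets, with each set's own level removed.

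PERK, the product of Eif2ak3, senses unfolded protein in the ER and phosphorylates the translation factor eIF2 on its alpha subunit, which slows protein synthesis while letting the ATF4 message be translated. ATF4 switches on genes for amino acid supply, redox balance and recovery of translation, and also Ddit3, whose product CHOP is linked to cell death when stress lasts. Beta cells carry a heavy load of proinsulin, and loss of PERK in mice and people leads to early diabetes. The human form of IAPP can assemble into amyloid fibrils, unlike the mouse form, and amyloid formation is the subject that the study's title gives. ATF4 protein and eIF2 phosphorylation are set after transcription and were not measured here, so the values below are messenger RNA levels only.

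Library totals ran from 16.1 to 43.7 M counts, and the members had between 94 and 22634 counts in a library. Iapp was lower in hIAPP islets in 8 of 8 sets at both glucose levels, by 1.14 at 16.7 mM and 0.83 at 11.1 mM (adjusted p = 4.21e-08 and 4.24e-05), though how far counts of the human insert enter it is not known. Islet hormone and beta cell genes were present throughout: the 8 beta cell markers summed to between 143700 and 335100 CPM in every library, where CPM are counts scaled to a common library size after TMM scaling. The share of counts from the 13 mitochondrially encoded protein genes moved with the groups, at 4.06 ± 1.63% (SD, n = 8) for hIAPP and 11.3 ± 11.2% for mIAPP with 16.7 mM glucose, and 16.6 ± 7.83% and 18.2 ± 11.6% with 11.1 mM. Its highest value, 37.0%, was in the mIAPP library at 16.7 mM of set 7. Markers of other cells moved with glucose as well. The 6 macrophage markers summed to 80.2 to 159 CPM in hIAPP islets at 16.7 mM against 211 to 365 at 11.1 mM, and in mIAPP islets to 81.1 to 178 against 172 to 319, with 5 and 6 of 6 lower past the threshold. Between genotypes at 16.7 mM 6 of the 8 beta cell markers were lower in hIAPP islets past the threshold, with Iapp, the replaced gene, among the 6. So were 3 of the 5 endothelial and both lymphocyte markers tested, while 1 macrophage, 1 ductal and 1 neutrophil marker were higher. That neutrophil marker, S100a9, was at 0.855 to 22.7 CPM in hIAPP islets at 16.7 mM and at 0 in all 8 mIAPP libraries at 16.7 mM. Csf3r, the other neutrophil marker tested, went the other way and did not pass. Its median at 16.7 mM was 0.441 CPM in hIAPP and 0.645 CPM in mIAPP islets. With glucose 7 of the 8 beta cell markers were lower in hIAPP and 3 in mIAPP islets, while 1, Iapp, was higher in each (log2 0.71 and 1.02). The 5 endothelial markers summed to 9.24 to 29.8 CPM in hIAPP islets at 16.7 mM against 26.8 to 81.3 at 11.1 mM, and in mIAPP islets to 20.4 to 69.6 against 34.6 to 102, with 5 and 3 of 5 lower past the threshold. No macrophage or endothelial marker was at 0 throughout a group. Of all tested genes 33.3% were lower with glucose past the threshold in hIAPP and 22.7% in mIAPP islets. Between genotypes at 16.7 mM 20.5% of all tested genes passed, and 9.27% were higher in hIAPP islets. Apart from the fits with the mitochondrial share given below, the part of these shifts in the results was not tested. In whole islets, fewer cells of a type and less RNA per cell cannot be told apart.

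The promoters of the members are shown here as a description of sequence. A link between a motif and the direction of change with glucose was not tested. All 10 matched a RefSeq start on GRCm38.p6, and the 250 bases before it were searched on both strands for 4 motifs. These were the CHOP and ATF composite element TGATGNAAN, at which ATF4 partners with C/EBP factors, the cyclic AMP response element TGACGTCA, the ER stress element (CCAAT and, after a gap of 9 bases, CCACG), and the CCAAT box, which the ER stress element also contains. The composite element was in 3 of 10 members (Asns, Chac1 and Nupr1) and in 3.44% of 32851 promoters of the same length. TGACGTCA was in 1 member, Ppp1r15a, and in 1.55% of promoters, the ER stress element in 0 members and 0.113%, and CCAAT in 6 members and 33.8%. Eif2ak3 held 6 CCAAT boxes and Ddit3 held 1. Matches are descriptions of sequence, not of binding. The 6 promoters printed are the 4 with a composite or cyclic AMP element and those of the genes that rose and fell most, each 5′ to 3′ with matches to any of the motifs in capitals.
Asns (chr6:7693210-7693459, minus strand): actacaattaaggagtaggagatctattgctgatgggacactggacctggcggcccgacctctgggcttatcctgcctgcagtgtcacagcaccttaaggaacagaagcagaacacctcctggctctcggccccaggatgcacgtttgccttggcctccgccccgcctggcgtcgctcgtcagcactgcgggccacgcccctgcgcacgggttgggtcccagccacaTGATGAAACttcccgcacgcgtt
Chac1 (chr2:119350992-119351241, plus strand): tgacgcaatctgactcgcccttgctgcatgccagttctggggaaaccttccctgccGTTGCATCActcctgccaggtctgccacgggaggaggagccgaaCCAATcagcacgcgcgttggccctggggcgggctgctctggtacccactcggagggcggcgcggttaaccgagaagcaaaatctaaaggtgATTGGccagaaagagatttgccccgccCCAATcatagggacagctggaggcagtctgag
Nupr1 (chr7:126625471-126625720, minus strand): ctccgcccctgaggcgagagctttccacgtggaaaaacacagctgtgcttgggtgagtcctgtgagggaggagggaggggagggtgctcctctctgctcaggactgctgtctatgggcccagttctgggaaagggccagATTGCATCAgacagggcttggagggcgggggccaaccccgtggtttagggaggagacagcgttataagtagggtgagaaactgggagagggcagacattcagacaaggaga
Ppp1r15a (chr7:45526269-45526518, minus strand): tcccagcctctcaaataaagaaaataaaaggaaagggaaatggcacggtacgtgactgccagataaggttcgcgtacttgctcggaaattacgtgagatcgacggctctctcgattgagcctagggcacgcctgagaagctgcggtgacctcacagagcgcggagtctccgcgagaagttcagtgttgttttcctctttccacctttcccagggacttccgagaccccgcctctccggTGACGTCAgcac
Eif2ak3 (chr6:70844265-70844514, plus strand): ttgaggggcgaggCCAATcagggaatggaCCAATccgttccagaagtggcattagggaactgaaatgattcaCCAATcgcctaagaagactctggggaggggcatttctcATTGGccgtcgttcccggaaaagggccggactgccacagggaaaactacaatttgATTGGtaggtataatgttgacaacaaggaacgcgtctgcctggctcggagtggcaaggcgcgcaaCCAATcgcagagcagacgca
Ddit3 (chr10:127290543-127290792, plus strand): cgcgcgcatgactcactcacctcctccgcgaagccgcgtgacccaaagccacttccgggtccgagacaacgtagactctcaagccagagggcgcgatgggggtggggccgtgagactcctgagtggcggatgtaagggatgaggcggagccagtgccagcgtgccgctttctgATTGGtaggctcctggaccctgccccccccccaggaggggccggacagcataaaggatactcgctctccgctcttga
In GENCODE M21 the models of Asns, Chac1, Ddit3 and Nupr1 begin upstream of these RefSeq starts. The element in Asns lay 23 to 15 bases before the start and read TGATGAAAC, and those in Chac1 (-194 to -186) and Nupr1 (-111 to -103) lay on the opposite strand.

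In the reported fit most members passed between glucose levels, but not in 1 direction. In hIAPP islets the calls of Ddit3, Trib3, Chac1 and Ppp1r15a were lost with the mitochondrial share as a covariate, as given below. In hIAPP islets 9 of 10 members passed the test between 16.7 and 11.1 mM: Eif2ak3, Atf4, Asns, Ppp1r15a and Chac1 rose, and Ddit3, Atf5, Trib3 and Sesn2 fell. In mIAPP islets 8 of 10 passed: the same 5 genes rose and Ddit3, Atf5 and Trib3 fell. Against the background, 65.5% of all tested genes passed in hIAPP islets (32.2% higher, 33.3% lower) and 47.5% in mIAPP islets (24.9% higher, 22.7% lower). The members' median log2 change was 0.17 in hIAPP and 0.18 in mIAPP islets, with a range of -1.25 to 1.86 and -1.16 to 1.03, and the median of all genes was -0.02 and -0.03. Groups did not overlap for 5 members in hIAPP islets (Eif2ak3, Atf4, Asns and Ppp1r15a higher, Atf5 lower) and for 1, Asns, in mIAPP islets, where 22.7% (14.3% higher, 8.38% lower) and 4.05% (2.64% higher) of all tested genes were so separated. Between genotypes the members' counts were near the background. At 16.7 mM 2 members passed, Eif2ak3 and Ppp1r15a, both higher in hIAPP islets, where 20.5% of all genes passed (9.27% higher). The groups did not overlap for 1 of them, Eif2ak3, nor for 2.98% of all genes (2.39% higher). At 11.1 mM 0 of 10 passed in edgeR, in DESeq2 and in limma voom, with 0 of 10 at an unadjusted p under 0.05, where 0.128% of all genes passed. For the genotype by glucose interaction 0 of 10 passed in edgeR with 2 at an unadjusted p under 0.05, 1 passed in DESeq2 and 0 in limma voom, where 3.12% of all genes passed in edgeR.

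**Figure D1:**
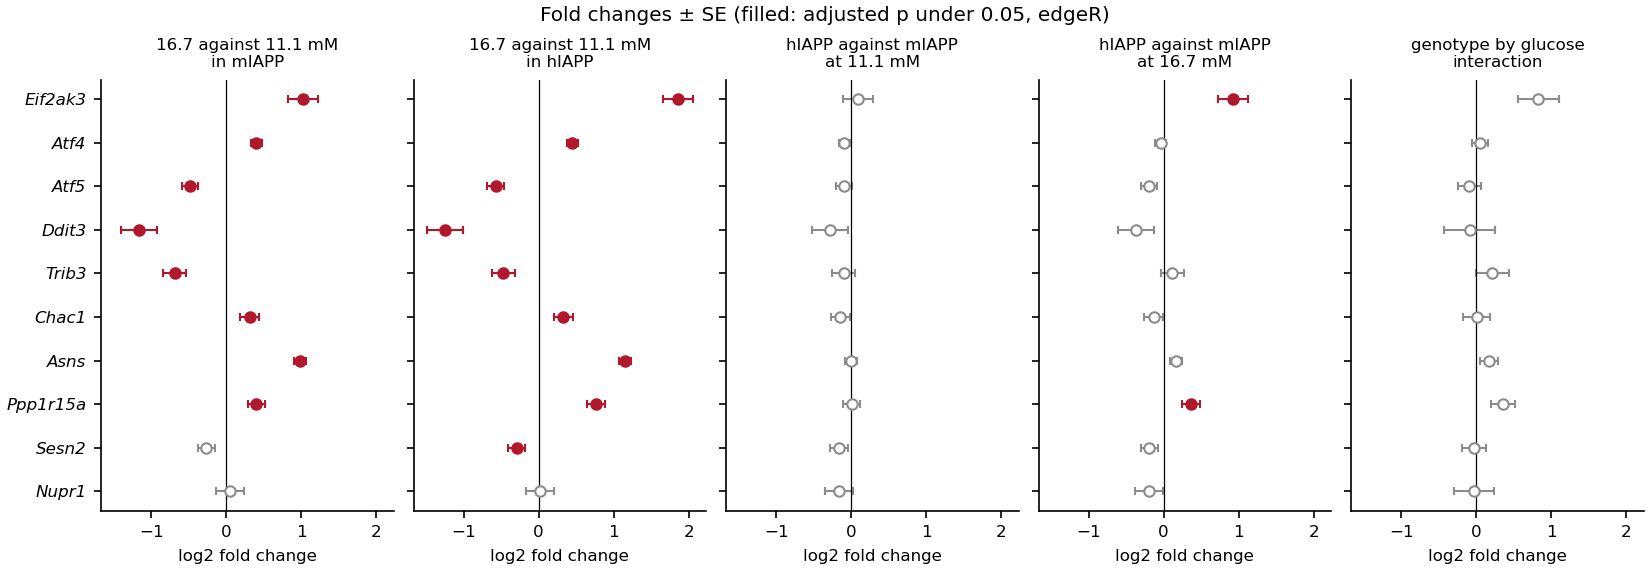
Log2 fold changes of the 10 members in the 5 comparisons with their standard errors (horizontal bars), filled where the adjusted p was under 0.05. Glucose columns hold filled points on both sides of 0, while the genotype column at 16.7 mM holds 2, Eif2ak3 at 0.92 and Ppp1r15a at 0.37, and the 11.1 mM and interaction columns hold none.

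Eif2ak3 (ENSMUSG00000031668, chromosome 6, 70844515 to 70905245, plus strand), which encodes PERK, was 1 of 2 members that passed between genotypes at 16.7 mM. In hIAPP islets at 16.7 mM its lowest, median and highest values were 92.5, 111 and 133 CPM. In mIAPP islets at 16.7 mM they were 21.9, 67.1 and 90.6 CPM. At 11.1 mM they were 14.6, 31.8 and 54.5 CPM for hIAPP and 8.98, 32.2 and 59.9 CPM for mIAPP islets. Every hIAPP library at 16.7 mM was thus above every library of the other 3 groups, while both groups at 11.1 mM covered the same range. Eif2ak3 rose 3.62-fold with glucose in hIAPP islets (log2 1.86 ± 0.20, SE, adjusted p = 2.53e-08), and the rise in mIAPP islets was 2.04-fold (1.03 ± 0.20, adjusted p = 0.000163), with 8 of 8 sets up in each. At 16.7 mM it was 1.90-fold above mIAPP islets in hIAPP islets (0.92 ± 0.20, adjusted p = 0.00184, 8 of 8 sets), and at 11.1 mM the difference was 0.09 ± 0.20 (adjusted p = 0.926, 4 of 8 sets higher). The interaction was positive in 8 of 8 sets, at 0.83 ± 0.28, but did not pass in edgeR (adjusted p = 0.0999), and passed in DESeq2 (0.83, adjusted p = 0.0371). With the log2 mitochondrial share as a covariate the genotype difference at 16.7 mM was 0.36 (adjusted p = 0.317), and among libraries with a share under 10% it was 0.73 (adjusted p = 0.00948). Without the replicate block it was 0.80 (adjusted p = 0.0691). The glucose rise was 0.86 for hIAPP (adjusted p = 0.0089) and 0.64 for mIAPP (adjusted p = 0.0023) with that covariate. In the libraries with under 10% it was 1.27 and 0.56 (adjusted p = 0.00169 and 0.0308). The exons of Eif2ak3 share 485 bases with those of Gm43292 on the opposite strand, which has no row in the deposited table. Whether counting used strand is not stated.

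Ppp1r15a (ENSMUSG00000040435, chromosome 7, 45522916 to 45526268, minus strand) encodes GADD34, the stress-induced subunit that directs a phosphatase to eIF2 and so restores translation. Its lowest, median and highest values at 16.7 mM were 53.0, 67.6 and 74.6 CPM for hIAPP and 34.6, 52.4 and 63.6 CPM for mIAPP islets. The values at 11.1 mM were 31.5, 39.4 and 45.7 CPM for hIAPP and 18.0, 39.2 and 50.6 CPM for mIAPP islets. The genotypes overlapped at 16.7 mM, although the hIAPP library was the higher of its set in 8 of 8 sets. Ppp1r15a rose 1.70-fold with glucose in hIAPP islets (log2 0.76 ± 0.11, SE, adjusted p = 3.21e-06), and the rise in mIAPP islets was 1.32-fold (0.40 ± 0.11, adjusted p = 0.00542), with 8 of 8 sets up in each. At 16.7 mM hIAPP islets held 1.29-fold more of it than mIAPP islets (0.37 ± 0.11, adjusted p = 0.0254), and at 11.1 mM the genotypes differed by 0.0056 ± 0.12 (adjusted p = 0.993). The interaction, 0.36 ± 0.16, did not pass (adjusted p = 0.234). The genotype call at 16.7 mM was lost without the replicate block (0.35, adjusted p = 0.0976), with the mitochondrial share as a covariate (0.15, adjusted p = 0.689), in the libraries with under 10% mitochondrial counts (0.27, adjusted p = 0.119), and without set 1, 6 or 8 or the mIAPP library at 16.7 mM of set 7 (0.33 to 0.38, adjusted p = 0.059 to 0.077). The glucose call was lost with that covariate for hIAPP (0.38, adjusted p = 0.109) and for mIAPP (0.25, adjusted p = 0.077), and for mIAPP also among the libraries with under 10% mitochondrial counts (0.14, adjusted p = 0.376).

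Atf4 (ENSMUSG00000042406, chromosome 15, 80255184 to 80257541, plus strand), the transcription factor at the centre of the arm, rose with glucose in both genotypes, to overlapping ranges. At 16.7 mM its lowest, median and highest values were 381, 409 and 504 CPM for hIAPP and 386, 423 and 538 CPM for mIAPP islets. The 11.1 mM values were 245, 310.4 and 365 CPM for hIAPP and 219, 339 and 407 CPM for mIAPP islets. In hIAPP islets all libraries at 16.7 mM were above all at 11.1 mM, and in mIAPP islets the groups overlapped. The change was 1.37-fold in hIAPP islets (log2 0.45 ± 0.07, SE, adjusted p = 1.07e-05), and for mIAPP it was 1.32-fold (0.40 ± 0.07, adjusted p = 0.000103), with all 8 sets up in both. Genotypes differed by -0.04 ± 0.07 at 16.7 mM (adjusted p = 0.722) and -0.09 ± 0.07 at 11.1 mM (adjusted p = 0.788), and the interaction was 0.05 ± 0.10 (adjusted p = 0.833).

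Atf5 (ENSMUSG00000038539, chromosome 7, 44812256 to 44816658, minus strand), a factor related to ATF4 that is also translated when eIF2 is phosphorylated, went the opposite way. At 16.7 mM its lowest, median and highest values were 324, 392 and 487 CPM for hIAPP and 381, 454 and 557 CPM for mIAPP islets. At 11.1 mM they were 528, 582 and 651 CPM for hIAPP and 505, 593 and 888 CPM for mIAPP islets. In hIAPP islets the glucose groups did not overlap, and the 2 highest libraries of all were mIAPP islets at 11.1 mM of sets 5 and 3, at 888 and 807 CPM. Atf5 fell by 0.57 ± 0.11 on the log2 scale with glucose in hIAPP islets (SE, adjusted p = 5.65e-05, 8 of 8 sets) and by 0.48 ± 0.11 for mIAPP (adjusted p = 0.000718, 7 of 8 sets). Genotypes differed by -0.19 ± 0.11 at 16.7 mM (adjusted p = 0.201) and -0.10 ± 0.11 at 11.1 mM (adjusted p = 0.846). Its exons share 82 bases with those of Nup62 and Il4i1 on the opposite strand, and whether counting used strand is not stated.

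Ddit3 (ENSMUSG00000025408, chromosome 10, 127290774 to 127296288, plus strand), which encodes CHOP, fell with glucose in both genotypes. In hIAPP islets its lowest, median and highest values were 44.8, 49.9 and 73.7 CPM at 16.7 mM and 73.5, 139 and 224 CPM at 11.1 mM. In mIAPP islets they were 33.9, 66.5 and 259.6 CPM at 16.7 mM and 70.6, 150.1 and 398 CPM at 11.1 mM. The mIAPP library of set 7 stood apart at 16.7 mM, with the next highest of its group at 76.1 CPM. Ddit3 fell by 1.25 ± 0.24 on the log2 scale in hIAPP islets (SE, adjusted p = 9.02e-05, 8 of 8 sets), to 0.421 times its level at 11.1 mM. In mIAPP islets it fell by 1.16 ± 0.24 (adjusted p = 0.000433, 7 of 8 sets). Genotypes differed by -0.37 ± 0.24 at 16.7 mM (adjusted p = 0.27, lower in 4 of 8 sets; -0.12 without set 7, -0.15 without its mIAPP library at 16.7 mM and -0.0443 among libraries with a share under 10%) and by -0.28 ± 0.24 at 11.1 mM (adjusted p = 0.797, lower in 6 of 8 sets). With the log2 mitochondrial share as a covariate the glucose change was -0.12 for hIAPP (adjusted p = 0.816) and -0.76 for mIAPP (adjusted p = 0.0023), and among libraries with a share under 10% it was -0.71 (adjusted p = 0.095) and -1.0013 (adjusted p = 0.014). Its exons share 68 bases with Mars, the cytosolic methionyl-tRNA synthetase gene on the opposite strand.

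Trib3 (ENSMUSG00000032715, chromosome 2, 152337422 to 152344032, minus strand), a pseudokinase induced by ATF4 and CHOP that restrains both, also fell with glucose. Its lowest, median and highest values at 16.7 mM were 31.2, 40.9 and 49.0 CPM for hIAPP and 27.02, 36.9 and 54.7 CPM for mIAPP islets. The values at 11.1 mM were 45.5, 55.3 and 73.8 CPM for hIAPP and 34.4, 56.3 and 107 CPM for mIAPP islets. The groups overlapped in both genotypes, and the fall was seen in 7 of 8 sets of each. It was -0.47 ± 0.15 on the log2 scale in hIAPP (SE, adjusted p = 0.00978) and -0.69 ± 0.16 for mIAPP (adjusted p = 0.00086). Genotypes differed by 0.11 ± 0.15 at 16.7 mM (adjusted p = 0.613) and -0.10 ± 0.15 at 11.1 mM (adjusted p = 0.901). In hIAPP islets the glucose call was lost with the mitochondrial share as a covariate (-0.28, adjusted p = 0.517) and in libraries with under 10% mitochondrial counts (-0.38, adjusted p = 0.287).

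Asns (ENSMUSG00000029752, chromosome 6, 7675169 to 7693254, minus strand), the asparagine synthetase gene and a standard readout of ATF4, was the member whose glucose groups stood clear of each other in both genotypes. In hIAPP islets its lowest, median and highest values were 237, 264 and 277 CPM at 16.7 mM and 93.3, 117 and 158 CPM at 11.1 mM. In mIAPP islets they were 191, 225 and 304 CPM at 16.7 mM and 90.8, 118 and 156 CPM at 11.1 mM. It rose 2.23-fold in hIAPP islets (log2 1.15 ± 0.08, SE, adjusted p = 1.43e-11), and the rise for mIAPP was 1.98-fold (0.98 ± 0.08, adjusted p = 6.5e-10), with all 8 sets up in both. Between genotypes the values differed by 0.17 ± 0.08 at 16.7 mM (adjusted p = 0.135) and -0.0047 ± 0.0811 at 11.1 mM (adjusted p = 0.993). The glucose calls held under every alternative run, with changes of 0.82 to 1.21 in hIAPP and 0.85 to 1.02 in mIAPP islets.

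Chac1 (ENSMUSG00000027313, chromosome 2, 119351229 to 119354381, plus strand), which encodes an enzyme that breaks down glutathione, carries the same composite element as Asns but rose less. In hIAPP islets its lowest, median and highest values were 54.9, 70.8 and 95.1 CPM at 16.7 mM and 49.1, 57.1 and 62.9 CPM at 11.1 mM. In mIAPP islets they were 67.0, 74.1 and 100.2 CPM at 16.7 mM and 39.7, 57.8 and 109.8 CPM at 11.1 mM. The groups overlapped in both genotypes, and 7 of 8 sets rose in each. The change was 0.33 ± 0.13 on the log2 scale in hIAPP (SE, adjusted p = 0.0271) and 0.31 ± 0.13 for mIAPP (adjusted p = 0.0445). The call in hIAPP islets was lost without set 3, 7 or 8, without the replicate block (0.33, adjusted p = 0.0676), with the mitochondrial share as a covariate (0.02, adjusted p = 0.966) and in libraries with under 10% mitochondrial counts (0.34, adjusted p = 0.27). That in mIAPP islets was lost in 13 of 19 alternatives, among them the fit without the replicate block (0.28, adjusted p = 0.166), and in libraries with under 10% mitochondrial counts the value was -0.04 (adjusted p = 0.873). Genotypes differed by -0.13 ± 0.13 at 16.7 mM (adjusted p = 0.457) and -0.14 ± 0.13 at 11.1 mM (adjusted p = 0.808).

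Sesn2 (ENSMUSG00000028893, chromosome 4, 132492032 to 132510501, minus strand), an antioxidant leucine sensor that restrains mTORC1, was nearly constant among hIAPP libraries at 11.1 mM. There its lowest, median and highest values were 105.8, 109 and 113 CPM, with an SD of 2.69 CPM, against 72.8, 116 and 182 CPM and an SD of 33.8 CPM in mIAPP islets at 11.1 mM. At 16.7 mM they were 74.0, 89.1 and 105.8 CPM for hIAPP and 72.5, 104 and 120.2 CPM for mIAPP islets. The lowest hIAPP library at 11.1 mM thus stood at the level of the highest at 16.7 mM. Sesn2 fell by 0.29 ± 0.12 on the log2 scale with glucose in hIAPP islets (SE, adjusted p = 0.03, 7 of 8 sets), a call lost without set 2, 4 or 6, without the count filter (-0.26, adjusted p = 0.09) and in libraries with under 10% mitochondrial counts (-0.31, adjusted p = 0.171). With the mitochondrial share as a covariate it was -0.63 and passed (adjusted p = 0.0135). In mIAPP islets the change was -0.26 ± 0.12 and did not pass (adjusted p = 0.0643, lower in 7 of 8 sets), and it passed in 8 of 19 alternatives, DESeq2 among them (-0.28, adjusted p = 0.0307). Genotypes differed by -0.19 ± 0.12 at 16.7 mM (adjusted p = 0.237) and -0.16 ± 0.12 at 11.1 mM (adjusted p = 0.773).

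Nupr1 (ENSMUSG00000030717, chromosome 7, 126623249 to 126630861, minus strand), a small stress-induced chromatin protein, was the member that did not pass in any comparison. At 16.7 mM its lowest, median and highest values were 89.0, 126 and 173 CPM for hIAPP and 93.9, 119 and 390.0 CPM for mIAPP islets. The 11.1 mM values were 56.3, 126 and 203 CPM for hIAPP and 69.5, 131 and 334 CPM for mIAPP islets. The medians of the 4 groups lay closer together than the libraries of any group. The glucose change was 0.02 ± 0.19 on the log2 scale in hIAPP (SE, adjusted p = 0.925, higher in 3 of 8 sets) and 0.05 ± 0.19 in mIAPP islets (adjusted p = 0.837, higher in 5 of 8 sets). With the mitochondrial share as a covariate it was 0.85 for hIAPP (adjusted p = 0.01) and 0.38 for mIAPP (adjusted p = 0.0672).

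**Figure D2:**
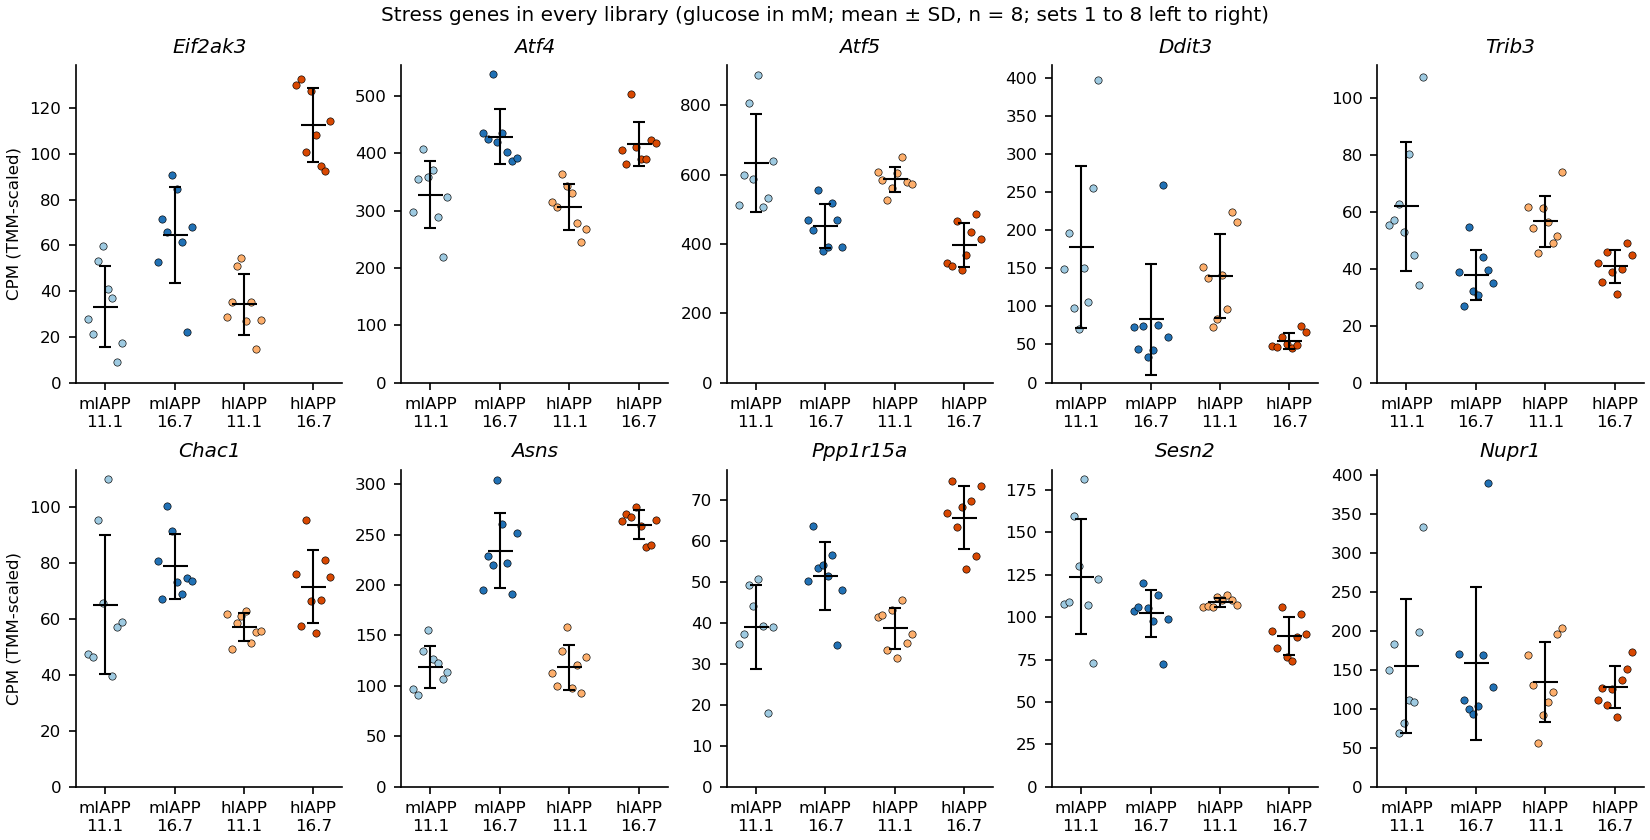
TMM-scaled CPM of each member in each library, by group (mM glucose), with sets 1 to 8 from left to right and bars for the mean ± SD (n = 8). Eif2ak3 in hIAPP islets at 16.7 mM lies above 92 CPM, higher than any other group, Asns separates by glucose in both genotypes, and set 7 of mIAPP islets at 16.7 mM lies apart for Ddit3 (259.6 CPM) and Nupr1 (390.0 CPM).

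Per kilobase of merged exon (GENCODE M21), Atf5 and Atf4 were the most abundant members and Eif2ak3 the least in all 4 groups. Atf5 stood at 199 ± 31.3 CPM per kilobase (SD, n = 8) for hIAPP and 227 ± 32.01 for mIAPP at 16.7 mM, and at 294 ± 18.2 and 318 ± 70.8 at 11.1 mM. Atf4 followed at 176 ± 16.4, 182 ± 20.3, 130 ± 17.2 and 139 ± 24.9 CPM per kilobase in the same order. At 16.7 mM the levels of these genes came within their spread in hIAPP islets. Eif2ak3 was last, at 18.7 ± 2.67, 10.7 ± 3.496, 5.66 ± 2.19 and 5.51 ± 2.94 CPM per kilobase. Ddit3 was the third at 11.1 mM in both genotypes, at 81.8 ± 32.5 in hIAPP and 104 ± 62.2 CPM per kilobase in mIAPP islets, and was the sixth in hIAPP islets at 16.7 mM, at 32.1 ± 6.21. Asns took the third place at 16.7 mM, at 95.1 ± 5.19 CPM per kilobase in hIAPP and 85.6 ± 13.5 in mIAPP islets, against 43.3 ± 8.07 and 43.4 ± 7.68 at 11.1 mM.

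Some members, though not all, kept the same direction with the mitochondrial share of the library in every group. How all tested genes went with that share was not tested, so this is not a trait shown to be particular to the members. Over all 32 libraries, which share groups, sets and total depth, Ddit3 rose with the log2 share at r = 0.88 (Spearman's rho 0.87, and r = 0.85 without the 2 libraries farthest from the median share), and r within the 4 groups of 8 libraries was 0.74 to 0.94. For Nupr1 r was 0.69 (rho 0.69, without those 2 libraries 0.63) and 0.69 to 0.92 within groups. Eif2ak3 went the other way, at r = -0.90 (rho -0.89, without those 2 libraries -0.89) and -0.89 to -0.56 within groups, as did Asns at -0.75 (rho -0.79, without those 2 libraries -0.79) and -0.79 to -0.47, and Ppp1r15a at -0.76 (rho -0.78, without those 2 libraries -0.74) and -0.74 to -0.08. For Atf4, Atf5, Trib3, Chac1 and Sesn2 the sign of r differed between groups. Atf5, for example, had r = 0.69 within hIAPP islets at 16.7 mM and -0.65 within mIAPP islets at 11.1 mM. Genes encoded in mitochondria count in the same totals as the members, and removing their counts before scaling left the calls as they were except in mIAPP islets between glucose levels, where Chac1 no longer passed (0.29, adjusted p = 0.0615) and Sesn2 did (-0.29, adjusted p = 0.0414).

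**Figure D3:**
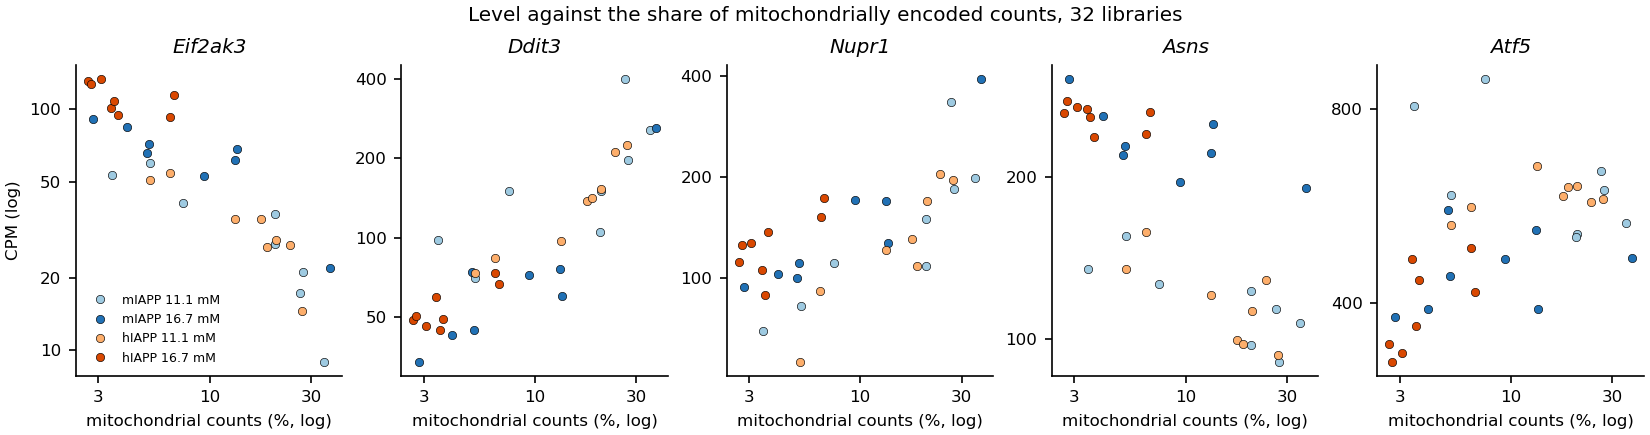
Level of 5 members (CPM, log axis) against the percentage of mitochondrially encoded counts (log axis) in the 32 libraries, coloured by group. Ddit3 and Nupr1 rise and Eif2ak3 and Asns fall along the axis, and Asns at a given share is higher in islets at 16.7 mM than at 11.1 mM.

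Members did not track one another as a single block. By Pearson's r of log2 CPM over the 32 libraries, a description of libraries that share groups and sets, Eif2ak3 and Ppp1r15a were each other's nearest member (r = 0.89). Ddit3 was farthest from Eif2ak3 (r = -0.92), and its nearest member was Trib3 (r = 0.67). After group and set means were removed, Ddit3 and Nupr1 were nearest to each other (r = 0.96), and Chac1 and Atf5 had r = 0.83. Among 13144 other genes the 3 most like Ddit3 were Noc2l (r = 0.98), Hyi (r = 0.97) and Dnajb2 (r = 0.96). Those most like Trib3 were Lonp1 (r = 0.89), which encodes a mitochondrial protease, Cyb5r1 (r = 0.88) and Coro1b (r = 0.84). Those most like Chac1 were Tusc2 (r = 0.81), Shmt2 (r = 0.79), a mitochondrial serine and glycine enzyme, and Tmem115 (r = 0.79). By Spearman's rho Dnajb2 led for Ddit3 (0.97), Cyb5r1 for Trib3 (0.90) and Cd2bp2 for Chac1 (0.85), and after group and set means were removed Slc1a7 led for Ddit3 (0.94), Lonp1 for Trib3 (0.90) and Tfeb for Chac1 (0.87).

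Other genes of the pathway were counted in 6 lists, which were chosen with earlier results of these data known. Their calls come from the reported fit, and how these depend on the mitochondrial share or the replicate block was not tested. Among ATF4 targets for amino acid synthesis and one-carbon metabolism, 10 of 11 rose with glucose in each genotype, while 32.2% and 24.9% of all tested genes were higher in hIAPP and mIAPP islets, with a median log2 change of 0.98 in hIAPP and 0.73 in mIAPP islets. Psat1 and Phgdh, which start serine synthesis, rose by 1.28 ± 0.09 and 1.39 ± 0.14 (SE) in hIAPP and by 1.29 ± 0.09 and 1.39 ± 0.14 in mIAPP islets, and Cbs, named after its values were seen, was the 1 that did not pass. Of 9 amino acid transporters 7 rose in hIAPP and 5 in mIAPP islets, and 0 fell, while 32.2% and 24.9% of all tested genes were higher. Slc7a3, a cationic amino acid carrier, rose by 2.46 ± 0.19 and 2.60 ± 0.19, from 3.06 to 15.1 CPM at the median in hIAPP and from 3.12 to 18.8 CPM in mIAPP islets. Slc7a11, the cystine carrier, rose by 1.39 ± 0.11 and 1.42 ± 0.11. Between genotypes at 16.7 mM 1 gene of these lists passed, Shmt2, lower in hIAPP islets by -0.29 ± 0.09 (adjusted p = 0.0302), while 20.5% of all tested genes passed.

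A list of 12 genes held the other eIF2 kinases, the substrate, the phosphatase and the exchange factor eIF2B. It also held Eif2a, whose product eIF2A is a separate initiation factor. With glucose 6 of the 12 rose and 1 fell in hIAPP islets, and 4 rose in mIAPP islets. Of all tested genes 65.5% and 47.5% passed in either direction. Ppp1r15b, the constitutive partner of Ppp1r15a, rose by 1.22 ± 0.18 (SE) in hIAPP and 0.95 ± 0.18 in mIAPP islets, and Eif2s1, which encodes the phosphorylated subunit, by 0.58 ± 0.10 and 0.53 ± 0.10. The kinase genes Eif2ak1 and Eif2ak2 passed in neither genotype (named after their values were seen). At 16.7 mM 1 of these 12 passed between genotypes, the eIF2B subunit gene Eif2b2, lower in hIAPP islets by -0.37 ± 0.12 (adjusted p = 0.038). Of all tested genes 20.5% passed in that comparison.

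Of 15 other outputs of ATF4 or CHOP, 6 rose and 4 fell with glucose in hIAPP islets, and 4 rose and 3 fell in mIAPP islets, where 65.5% and 47.5% of all tested genes passed, so the counts are near the background. Stc2, a secreted glycoprotein, rose by 1.59 ± 0.17 (SE) and 1.56 ± 0.18, and Ero1l, an ER oxidase known as a CHOP target, by 1.16 ± 0.11 and 0.90 ± 0.11. The 3 that fell in both genotypes were Tnfrsf10b, a death receptor and CHOP target, by -1.03 ± 0.18 and -0.51 ± 0.18, Bbc3, which encodes PUMA, by -0.73 ± 0.16 and -0.48 ± 0.15, and Bcl2l11, which encodes BIM, by -0.64 ± 0.11 and -0.67 ± 0.11 (Tnfrsf10b and Bbc3 were named after their values were seen). Pmaip1, which encodes NOXA, another gene of cell death, did not pass, at -0.42 ± 0.29 (adjusted p = 0.208) and 0.18 ± 0.29 (adjusted p = 0.625), and is also named after its values were seen. Sesn1, a relative of Sesn2, was the other faller in hIAPP islets, at -0.46. At 16.7 mM the genotypes differed for 8 of the 15, where 20.5% of all tested genes passed (9.27% higher), with 5 higher in hIAPP islets (Sqstm1 0.58 ± 0.12, Ero1l 0.54 ± 0.11, Stc2 0.57 ± 0.17, Vldlr 0.37 ± 0.12 and Ddit4 0.35 ± 0.12), and 3 lower (Tnfrsf10b -0.60 ± 0.18, Bbc3 -0.53 ± 0.15 and Sesn1 -0.28). Ero1l and Tnfrsf10b, both background targets of CHOP, thus lay on opposite sides while Ddit3 itself did not pass.

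Of 3 other transcription factor genes of the response, Atf3 was the 1 that passed between genotypes at 16.7 mM, where 20.5% of all tested genes passed. Its lowest, median and highest values at 16.7 mM were 7.29, 10.4 and 17.0 CPM for hIAPP and 3.12, 3.77 and 5.33 CPM for mIAPP islets. At 11.1 mM they were 2.97, 5.02 and 6.50 CPM for hIAPP and 2.28, 4.11 and 8.67 CPM for mIAPP islets. The hIAPP libraries at 16.7 mM were above all mIAPP libraries at 16.7 mM. Atf3 was higher in hIAPP islets at 16.7 mM by 1.55 ± 0.17 (SE, adjusted p = 3.98e-07, 8 of 8 sets), and its interaction was 1.45 ± 0.24 (adjusted p = 0.000726, 8 of 8 sets). It rose by 1.29 ± 0.17 with glucose in hIAPP islets and changed by -0.16 ± 0.17 in mIAPP islets (adjusted p = 0.454). No member passed for the interaction in edgeR.

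The IRE1 and ATF6 arms and ER chaperones rose throughout with glucose, 21 of 21 genes in each genotype against 32.2% and 24.9% of all tested genes, with a median of 1.41 in hIAPP and 1.11 in mIAPP islets. Creld2, Manf, Sdf2l1 and Dnajb11, all induced by ER stress, rose by 1.56, 1.41, 2.18 and 1.16 in hIAPP and by 1.54, 1.38, 2.01 and 1.06 in mIAPP islets. Between genotypes at 16.7 mM 3 of 21 passed, all higher in hIAPP islets, where 9.27% of all tested genes were higher. They were Ern1, which encodes the sensor IRE1 (1.04 ± 0.26, SE, adjusted p = 0.00636), Edem1 at 0.40 and Pdia6 at 0.33. In the 6 lists together 0 genes passed between genotypes at 11.1 mM in edgeR, where 0.128% of all tested genes passed. For the interaction Atf3 alone passed, while 3.12% of all tested genes did. The sensors Eif2ak3 and Ern1 thus both passed between genotypes at 16.7 mM in the reported fit. The call of Eif2ak3 was lost without the replicate block and with the mitochondrial share as a covariate, and that of Ern1 was not tested in those fits. The interaction of Ern1, 1.00 ± 0.36, did not pass (adjusted p = 0.131).

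**Figure D4:**
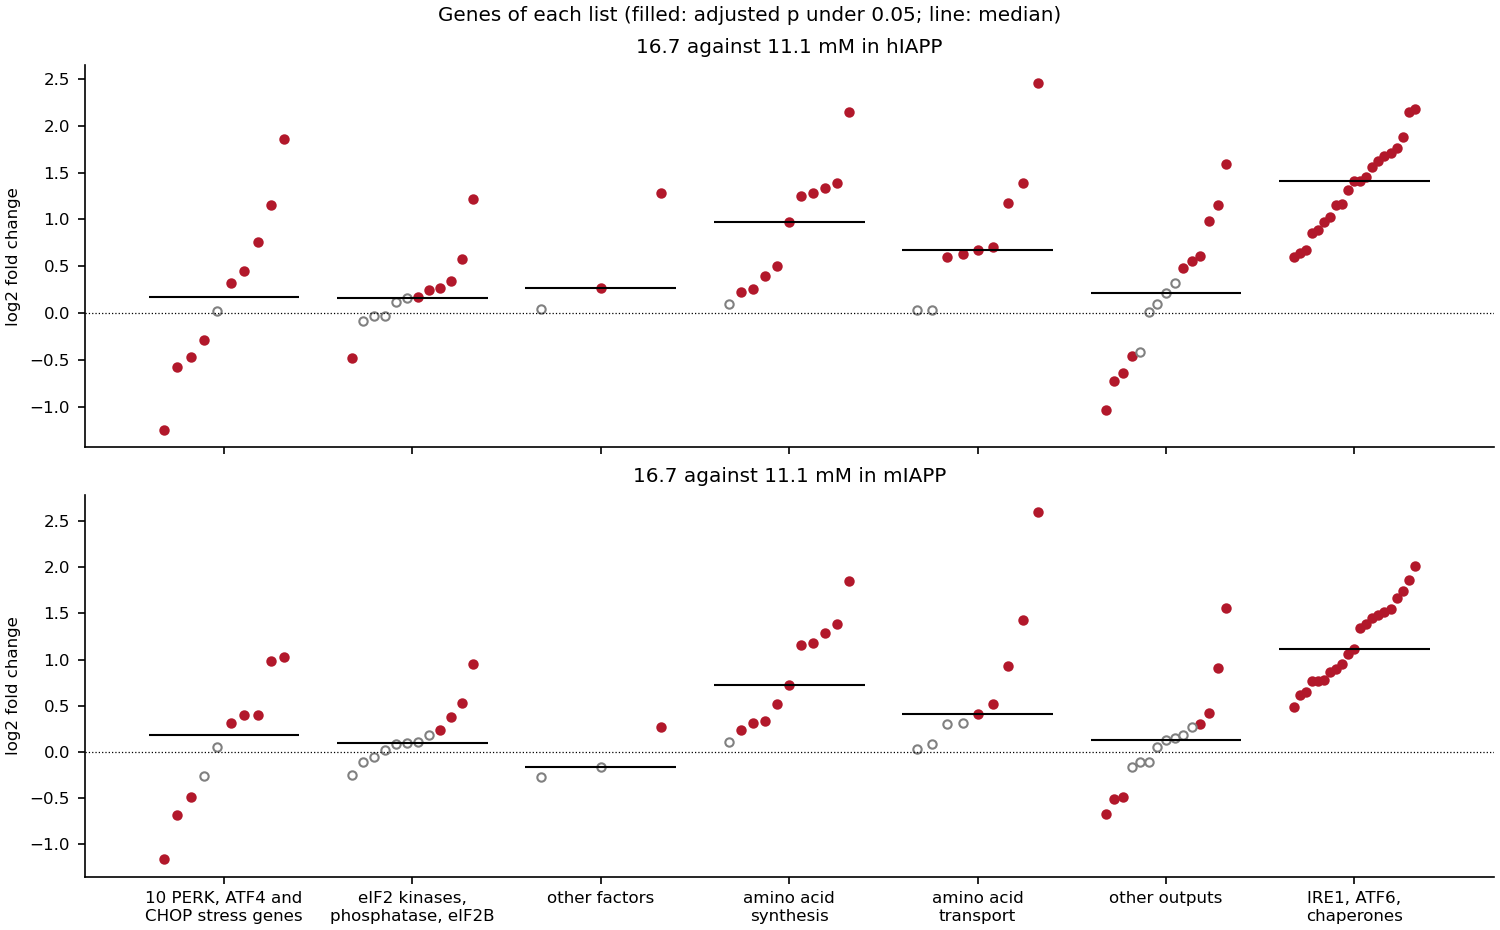
Log2 fold change with glucose of each gene in the member list and the 6 other lists, ordered by value within a list, in hIAPP (upper panel) and mIAPP islets (lower panel), filled where the adjusted p was under 0.05, with a line at the list's median. The members spread from -1.25 to 1.86 in hIAPP islets around a median of 0.17, while all 21 IRE1, ATF6 and chaperone genes lie above 0.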

How the data were processed

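RNA of 32 islet cultures was sequenced from poly(A)-selected, directional libraries, per the labels' protocols. The authors deposited estimated counts per gene, made with bcl2fastq 1.8.4, kallisto 0.45.0 and mouse build GRCm38, per the submitters' processing notes. How transcripts were summed and rounded, and whether strand was used, is not given in the sources used here. Counts were rounded and genes with low counts removed (edgeR filterByExpr), leaving 16428 genes, tested in R 4.3.3 with edgeR 4.0.16 (TMM, quasi-likelihood test, Benjamini-Hochberg adjusted p under 0.05 over all genes, 21 residual degrees of freedom). Group and set entered the model, the set as replicate block, because the labels say that each set held all 4 groups; deviations of same-set libraries correlated at a mean r of 0.17 to 0.36 between groups. An SE is the log2 change divided by the square root of F. DESeq2 1.42.0, limma 3.58.1 (voom), other scalings and filters, no block, the mitochondrial share as covariate or limit, and leaving out each set or a single library were alternatives. Leaving out the library with the lowest total was chosen after seeing the data. On simulated data for hIAPP against mIAPP at 16.7 mM (16428 genes), 50% of genes changed 1.5-fold and 100% of those changed 2-fold were recovered. Every simulated gene had the same added spread, with no set effect and no shift in mitochondrial share. The changed genes were drawn from those above a minimum level. Recovery in the real data was therefore not measured. Depth was 16.1 to 43.7 M counts. All members are named, with the 3 genes most like Ddit3, Trib3 and Chac1, and Iapp. Of each other list up to 4 genes per comparison were to be named by smallest p. Some genes beyond that number are also named, as among the other outputs of ATF4 or CHOP. The members and lists were chosen with earlier results of these data known.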

Additional observations from a re-analysis of the deposited data

Results flagged for a closer look

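In 5 of the 40 combinations of a member and a group, the highest or lowest of the 8 libraries lay far from the others, by a gap to its neighbour of more than 0.526 of the group's range; chance gives about 1 in 20. Set 3 was the highest for Atf4 in both groups at 16.7 mM, at 503.9 CPM in hIAPP (next 424.3) and 538.0 CPM in mIAPP islets (next 436.1). The mIAPP library at 16.7 mM of set 7 was the highest for Ddit3, at 259.6 CPM (next 76.1), and for Nupr1, at 390.0 CPM (next 170.5), and the lowest for Sesn2, at 72.48 CPM (next 97.7). That library held 37.0% mitochondrially encoded counts and 36.6 M counts in all. The part of the mitochondrial share in these values was not tested.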

How the results depend on the processing

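Of the members called between genotypes at 16.7 mM, 2 in the reported analysis, 0 remained without the replicate block, 0 with the mitochondrial share as covariate and 1 in libraries under 10% mitochondrial, and 1 to 2 when a set or library was left out (1 without the mIAPP library at 16.7 mM of set 7). The 9 called with glucose in hIAPP islets became 5 in libraries under 10%, and the interaction went from 0 to 1 in DESeq2. With the covariate, the hIAPP glucose calls of Ddit3, Trib3, Chac1 and Ppp1r15a were lost, and Nupr1, not called in the reported analysis, passed. Leaving out the replicate block ended the member calls of Eif2ak3 and Ppp1r15a between genotypes at 16.7 mM and of Chac1 with glucose in both genotypes, and changed no other. Directions that turned were all of members that had not passed, except Chac1 with glucose in mIAPP islets, at -0.0439 under 10%. With the covariate, Ddit3, Asns and Nupr1 between genotypes at 16.7 mM were 0.32, -0.0238 and 0.29, and the interactions of Ddit3, Chac1, Asns and Nupr1 were 0.64, -0.19, -0.0302 and 0.48. Under 10%, the interactions of Atf5, Ddit3, Sesn2 and Nupr1 were 0.16, 0.29, 0.22 and 0.21. Between genotypes at 11.1 mM Ppp1r15a was -0.0168 without the replicate block, -0.009 in limma voom and -0.36 under 10%, and Asns was 0.0064 with no filter, 0.0064 with the covariate and 0.0532 under 10%. Nupr1 with glucose in hIAPP islets was -0.0766 without the replicate block and -0.0167 with a mean of at least 1 CPM, and the Chac1 interaction was -0.0264 in limma voom and -0.0041 with that filter. Leaving out sets or libraries gave -0.0353 to 0.045 for Asns and -0.12 to 0.11 for Ppp1r15a between genotypes at 11.1 mM, -0.10 to 0.11 and -0.14 to 0.24 for Nupr1 with glucose in hIAPP and mIAPP islets, and for the interaction -0.26 to 0.18 (Ddit3), -0.0822 to 0.0828 (Chac1), -0.0998 to 0.046 (Sesn2) and -0.20 to 0.19 (Nupr1). The cause was not tested.

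Over all genes, 3371 calls between genotypes at 16.7 mM became 1301 without the replicate block, 752 with the covariate, 1133 under 10% and 1623 to 3841 with sets or libraries left out (1623, 2215, 1852 and 1943 without set 1, 2, 6 or 7, and 2108 without the mIAPP library at 16.7 mM of set 7). The 10768 calls with glucose in hIAPP islets became 3181 and 3881 with the covariate and under 10%, and the 7805 in mIAPP islets 5181 under 10%. The 513 of the interaction became 196 without the block, 959 in DESeq2, 946 in limma voom, 260 with the covariate, 7 under 10% and 239 to 587 with sets or libraries left out (239, 310, 280 and 337 without set 1, 2, 6 or 8), and the 21 between genotypes at 11.1 mM became 35 in DESeq2 and 10 under 10%. Libraries under 10% numbered 8, 5, 2 and 3 in hIAPP and mIAPP islets at 16.7 and then 11.1 mM, so those fits had fewer samples.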
